A study of Mus musculus with 18 samples.

Results

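Livers of mice that lack the farnesoid X receptor (FXR, encoded by Nr1h4) in hepatocytes were compared with livers of wild type (WT) mice, both given vehicle and no agonist. The question was which genes differ at the basal state when the receptor is missing from the liver alone. The arrays were chosen by their labels: 3 of liver FXR KO mice with vehicle and 3 of WT mice with vehicle, which is 6 of the 18 arrays in the series. The other 12 arrays hold whole-body FXR KO mice with vehicle and all 3 genotypes with GW4064, a synthetic FXR agonist (150 mg/kg per the labels, a lower dose per the methods), 3 arrays per group, and they are used below only where they bear on the vehicle comparison. All mice were labelled as males of 10 to 16 weeks on a C57BL/6J background. The liver FXR KO mice carried a floxed Fxr gene that Cre, driven by the albumin promoter, deletes in hepatocytes. Whether the gene stayed in all other cells of the liver was not measured here. The whole-body FXR KO mice lack the gene in every tissue. The sources used here do not say whether the WT mice were littermates or carried a floxed gene or Cre. Vehicle was given by oral gavage, and the labels give 2 doses with the liver taken 2 hours after the second. The methods, which describe the dosing of WT mice, give 3 doses and a fast overnight instead, so the feeding state of the KO mice is not known here.

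FXR is a nuclear receptor that binds bile acids and, paired with RXR, binds IR1 elements, inverted repeats of the sequence AGGTCA with 1 base between the repeats. In the liver it lowers bile acid synthesis through the repressor SHP (Nr0b2), and in the ileum through the hormone FGF15, which signals back to hepatocytes. It also raises the export of bile acids into bile and acts on lipid, amino acid and glucose metabolism.

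Each value is a log2 expression level as the authors normalized it, so a difference of 1 is 2 fold. Of 22690 probe sets, 20393 had 1 gene symbol, and the brightest probe set of each gene gave 12394 genes. A gene was called when its adjusted p was below 0.05 in limma, with all 18 arrays sharing 1 estimate of the spread. The 6 arrays compared were alike, with a mean correlation of 0.991 to 0.994 with the other arrays. WT with GW4064 replicate 1 and whole-body KO with GW4064 replicate 3 stood apart, at 0.984, and they enter the vehicle comparison only through the shared spread. The labels do not say which arrays came from separate mice, so the p-values measure the spread between these arrays.

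Nr1h4 itself was at least 24.5 fold lower in the liver FXR KO arrays. It read 9.01, 9.39 and 8.83 in the WT arrays and 4.46, 4.29 and 4.63 in the liver KO arrays, a log2 difference of -4.61 ± 0.14 (SE, 3 arrays per group, adjusted p = 2.94e-12 in limma). The whole-body KO arrays read 4.21, 4.27 and 4.12. Over both treatments, the 6 WT arrays lay between 8.83 and 9.39 and the 12 KO arrays of either kind between 3.98 and 4.69, so each array matched its label as WT or KO. Nr1h4 does not tell the kinds of KO or the treatments apart. Whether the probes lie in the deleted part of the gene is not given in the sources used here. Both kinds of KO read near the level of Krt7 and Mki67, markers of bile duct and dividing cells, whose liver KO means were 4.26 and 4.16. At that level the fold is a lower bound, and the difference of -0.26 between whole-body and liver KO (adjusted p = 0.497) does not show whether other liver cells kept Nr1h4. A whole liver holds many cell types, and fewer cells of a type and less RNA per cell cannot be told apart in these data.

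Loss of hepatocyte FXR was accompanied by calls in 109 genes, 0.879% of those tested. Of these, 48 were higher (0.387%) and 61 lower (0.492%) in the liver KO. The changes were mostly small. The median size over the 109 genes was 0.59 on the log2 scale and the smallest was 0.29, while 22 genes differed beyond 2 fold, 4 of them higher and 18 lower. In all 109 genes the 3 liver KO arrays lay on 1 side of the 3 WT arrays, a separation that 20.3% of all genes showed. The median difference over all genes was -0.01. At an unadjusted p below 0.05, 764 genes were higher and 794 lower.

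**Figure D1:**
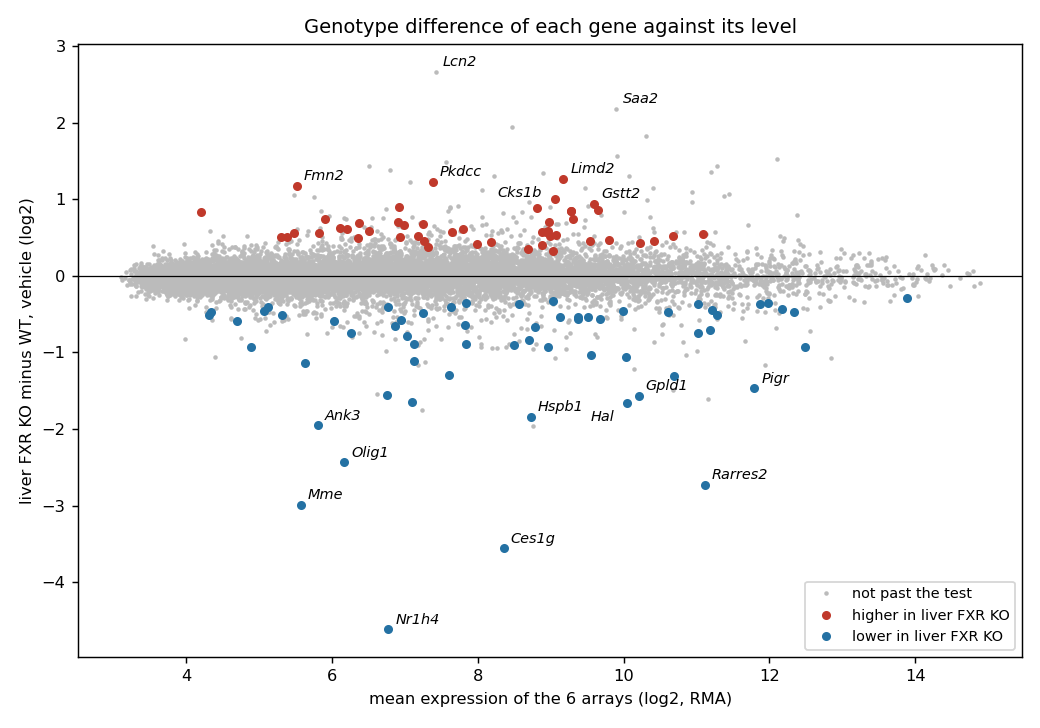
Log2 difference (liver FXR KO minus WT, vehicle) against the mean log2 level of the 6 arrays, 1 point per gene for 12394 genes. Red points are the 48 genes called higher, blue points the 61 called lower and grey points the rest, and the larger changes are mostly falls, led by Nr1h4 at -4.61.

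Ces1g, Rarres2, Gpld1 and Pigr were among the largest falls. Ces1g, a carboxylesterase that hydrolyses lipid esters, was 11.8 fold lower in the liver KO. It read 10.30, 10.21 and 9.89 in WT and 6.18, 6.51 and 7.04 in the liver KO, a log2 difference of -3.56 ± 0.30 (SE, adjusted p = 3.88e-06). The 2 groups were over 2 log2 units apart at their nearest arrays. Ces1g belongs to a cluster of closely similar Ces1 genes whose transcripts the probes may not tell apart. Rarres2 encodes chemerin, a secreted attractant of immune cells and an adipokine. It read 12.44, 12.34 and 12.65 in WT and 9.88, 9.75 and 9.61 in the liver KO, which is 6.63 fold lower (adjusted p = 3.88e-06). Gpld1, the plasma phospholipase that cleaves glycosylphosphatidylinositol anchors, had the tightest replicates of this group. Its WT arrays read 11.06, 11.02 and 10.90 and its liver KO arrays 9.41, 9.37 and 9.50, a difference of -1.57 ± 0.07 (adjusted p = 1.18e-09). Pigr, the receptor that carries IgA into bile, read 12.55, 12.58 and 12.44 in WT and 10.76, 11.04 and 11.37 in the liver KO (2.76 fold lower, adjusted p = 0.000131). The liver KO arrays of Pigr were more spread than its WT arrays, but all lay lower. Igfbp2, a circulating carrier of insulin-like growth factors, read 11.37, 11.09 and 11.56 in WT and 10.34, 9.69 and 10.08 in the liver KO (-1.31, adjusted p = 0.0213). Ces1g, Rarres2, Gpld1 and Pigr passed with each of the 6 arrays left out in turn, and Rarres2 differed by -1.81 with the mean of its 3 probe sets. Igfbp2 did not pass without WT replicate 1 or 3 or liver KO replicate 2 or 3 (adjusted p up to 0.122).

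**Figure D2:**
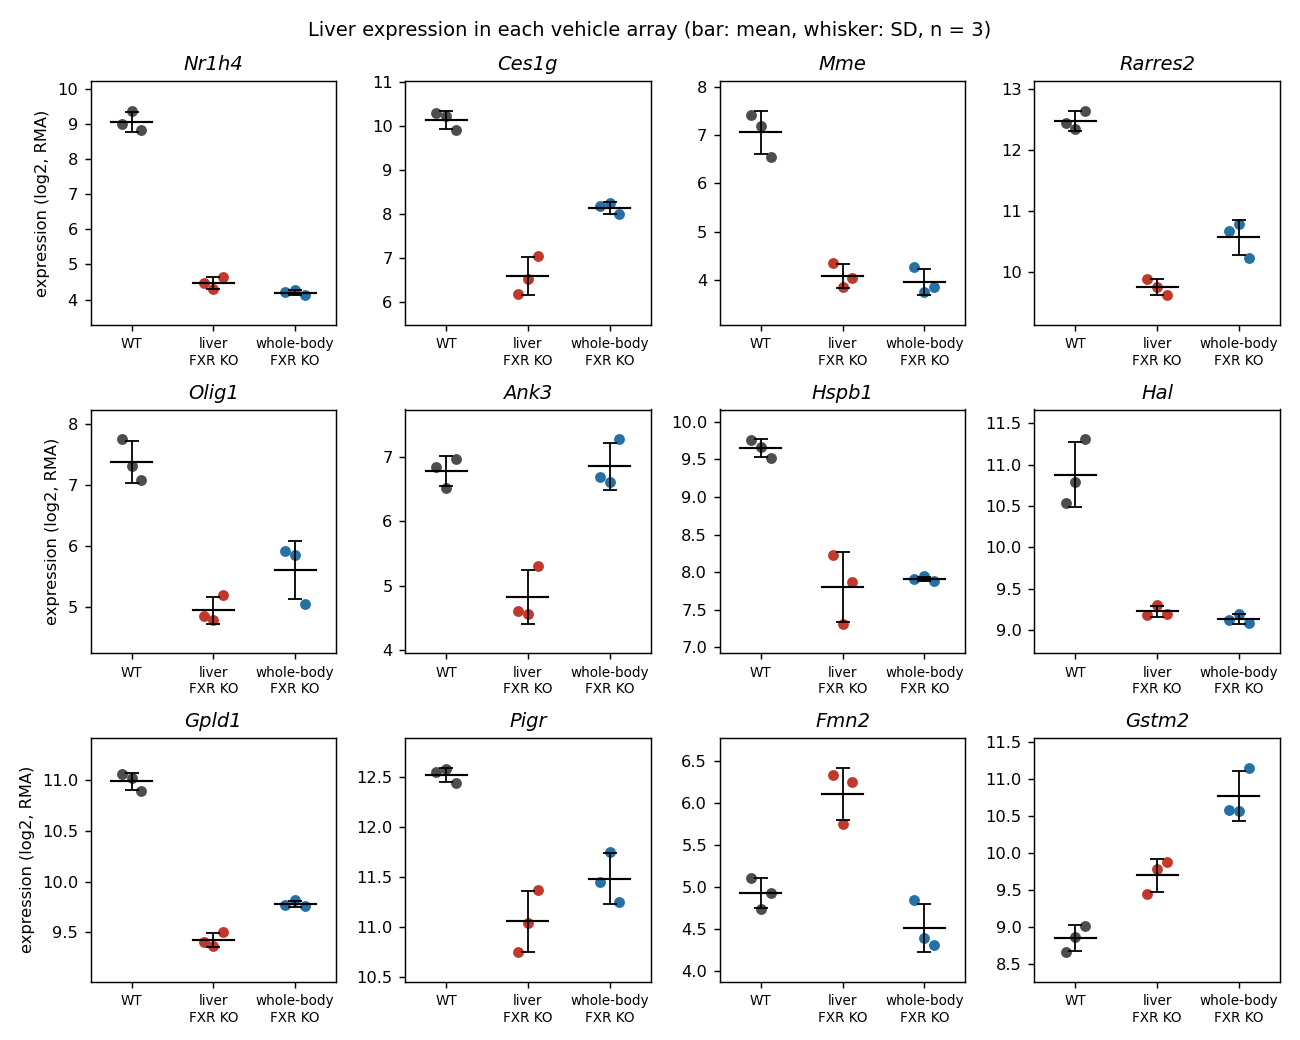
Log2 expression level of 12 genes in the vehicle arrays of WT, liver FXR KO and whole-body FXR KO mice. Each dot is 1 array, the bar is the mean and the whisker the SD of 3 arrays. Ank3 and Fmn2 differ from WT in the liver KO, whereas the whole-body KO arrays of both lie near WT.

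Further large falls were in genes with other roles. Mme encodes neprilysin, a membrane peptidase. It read 7.43, 7.20 and 6.56 in WT and 4.35, 3.85 and 4.03 in the liver KO, at least 7.93 fold lower (adjusted p = 0.0103), since these liver KO arrays lie as low as those of Nr1h4. Olig1, a transcription factor known for its role in oligodendrocytes, read 7.75, 7.31 and 7.08 in WT and 4.85, 4.79 and 5.19 in the liver KO. That difference was -2.44 ± 0.31 (adjusted p = 0.00083). Ank3 encodes ankyrin G, which ties membrane proteins to the cytoskeleton. Its WT arrays read 6.85, 6.52 and 6.97 and its liver KO arrays 4.61, 4.57 and 5.31 (3.87 fold lower, adjusted p = 0.000389), and each of its 3 probe sets was lower. The 4.61 and 4.57 lie in the range of Nr1h4 in the KO arrays, so this fold may be a lower bound. Hspb1, a small heat shock protein, read 9.76, 9.66 and 9.52 in WT and 8.23, 7.31 and 7.87 in the liver KO (3.58 fold lower, adjusted p = 0.0226). The groups of these 4 genes did not overlap, although the liver KO arrays of Hspb1 spread over nearly 1 log2 unit.

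Smaller falls were measured in 4 further genes. Arid5b, a DNA-binding regulator of metabolic genes, read 8.63, 7.49 and 7.63 in WT and 6.36, 5.89 and 6.55 in the liver KO (-1.65, adjusted p = 0.0167). Pstpip2, an adaptor of the actin cytoskeleton, read 7.42, 7.23 and 7.97 in WT and 5.69, 6.01 and 6.24 in the liver KO (-1.56, adjusted p = 0.012). Papss1, which makes the sulfate donor used by sulfotransferases, read 8.29, 8.06 and 8.42 in WT and 6.16, 7.59 and 7.13 in the liver KO (-1.30, adjusted p = 0.0363). Liver KO replicate 1 was far below the other liver KO arrays of Papss1. Unc13b, a priming factor for vesicle release, read 6.23, 6.12 and 6.27 in WT and from 4.96 to 5.24 in the 3 liver KO arrays (-1.14, adjusted p = 0.00453). Olig1, Ank3 and Unc13b passed with each array left out. Mme failed only without liver KO replicate 2 (adjusted p = 0.0554), whereas Hspb1, among the fits with 1 array left out, passed only in that without liver KO replicate 1 (adjusted p up to 0.123). Papss1 passed only in that without liver KO replicate 2 (adjusted p up to 0.162). Arid5b failed without WT replicate 1 or liver KO replicate 1 or 2 and Pstpip2 without WT replicate 3 or liver KO replicate 1 or 2 (adjusted p up to 0.105). With the mean of its probe sets Arid5b differed by -0.92 and did not pass (adjusted p = 0.0625).

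The rises that passed the test were smaller than the largest falls, and none of those named reached 3 fold. Limd2, a LIM domain protein, had the largest among the named genes called. It read 8.97, 8.65 and 7.99 in WT and 9.75, 9.86 and 9.80 in the liver KO, 2.41 fold higher (difference 1.27 ± 0.19, adjusted p = 0.00317). Its liver KO arrays were close together while the WT arrays spread over nearly 1 log2 unit. Pkdcc, a secreted tyrosine kinase, read 7.08, 6.29 and 6.92 in WT and 8.21, 8.20 and 7.58 in the liver KO (1.23, adjusted p = 0.00771). Fmn2, a formin that builds actin filaments, read 5.10, 4.74 and 4.93 in WT and 6.33, 5.75 and 6.24 in the liver KO (2.27 fold higher, adjusted p = 0.00153). The groups of both genes were separate.

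Derl1, Plscr1 and Fam126b were among the other rises. Derl1, which draws misfolded proteins out of the endoplasmic reticulum, read 9.46, 9.23 and 8.95 in WT and 10.32, 10.01 and 9.90 in the liver KO (0.86, adjusted p = 0.00454). Plscr1, a phospholipid scramblase induced by interferon, read 6.40, 6.18 and 6.86 in WT and 7.46, 7.32 and 7.35 in the liver KO (0.90, adjusted p = 0.00454). Kif5b is a kinesin heavy chain that moves cargo along microtubules. It read 9.05, 9.03 and 8.71 in WT and 9.78, 9.57 and 9.67 in the liver KO (0.74, adjusted p = 0.0128). Rab34, a small GTPase of membrane traffic, read 6.66, 6.57 and 6.45 in WT and 7.20, 7.25 and 7.35 in the liver KO (0.71, adjusted p = 0.0105). Fam126b belongs to a complex that makes a membrane phosphoinositide. It read 8.68, 8.39 and 8.03 in WT and 9.44, 9.18 and 9.14 in the liver KO (0.89, adjusted p = 0.0155). Cpox, an enzyme of haem synthesis, read 8.82, 8.78 and 8.26 in WT and 9.54, 9.36 and 9.10 in the liver KO (0.71, adjusted p = 0.0317). Med12l, a protein related to a subunit of the Mediator kinase module, was tight in the liver KO, at 6.23, 6.33 and 6.29, against 5.68, 5.39 and 5.54 in WT (0.74, adjusted p = 0.00244), and Ginm1 was 0.86 higher (adjusted p = 0.00865).

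Among these rises Limd2, Fmn2, Derl1, Plscr1, Med12l and Ginm1 passed with each of the 6 arrays left out. Pkdcc failed only without liver KO replicate 2 (adjusted p = 0.0545) and Rab34 only without liver KO replicate 3 (adjusted p = 0.0506). Kif5b failed without WT replicate 3 or liver KO replicate 1 or 3 (adjusted p up to 0.0729). Fam126b and Cpox each failed without WT replicate 2 or 3 or liver KO replicate 1 or 2 (adjusted p up to 0.179). The size of several rises depended on the probe set: with the mean of a gene's probe sets in place of the brightest, Limd2 was 0.66 higher, Pkdcc 0.77, Fmn2 0.57, Derl1 0.32 and Rab34 0.43. Derl1 (adjusted p = 0.0706) and Rab34 (adjusted p = 0.224) did not pass then.

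The related cell cycle subunits Cks1b and Cks2, which bind cyclin-dependent kinases, moved in opposite directions. Cks1b read 8.56, 8.39 and 8.72 in WT and 9.45, 9.87 and 9.37 in the liver KO (adjusted p = 0.0128), and failed without WT replicate 2 or liver KO replicate 2 (adjusted p up to 0.0888). Cks2, named after its values were seen, read 8.95, 8.95 and 8.96 in WT and 8.05, 8.08 and 8.00 in the liver KO (-0.91, adjusted p = 0.00284). Neither gene's groups overlapped.

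Genes of bile acid metabolism, the best known targets of FXR, did not pass the test at the basal state. None of 19 measured genes of bile acid synthesis and conjugation was called, and the median difference of the list was -0.08. Cyp7a1, which limits the rate of the classical pathway, read 10.75, 10.44 and 10.61 in WT and 10.38, 11.13 and 11.29 in the liver KO, a difference of 0.33 ± 0.69 (adjusted p = 0.901). Its groups overlapped. Cyp8b1, which directs synthesis to cholic acid, read 12.23, 11.81 and 11.65 in WT and 11.94, 11.96 and 12.11 in the liver KO (0.11 ± 0.42, adjusted p = 0.95). None of 17 genes of the feedback pathway and partner receptors was called (median 0.05), and Nr0b2 read 7.85, 7.86 and 8.21 in WT and 7.56, 8.01 and 8.18 in the liver KO. These SEs come from all 18 arrays: the SD of Cyp7a1 was 0.16 in WT and 0.48 in the liver KO with vehicle but 2.23 in WT with GW4064, and that of Cyp8b1 was 0.30, 0.09 and 1.21.

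Transport of bile acids and biliary lipids gave no call among 14 measured genes either (median -0.01), but Abcb11, the bile salt export pump, came near to the threshold. It read 11.59, 11.44 and 11.66 in WT and from 10.96 to 11.02 in the 3 liver KO arrays, without overlap, a difference of -0.57 ± 0.14 (adjusted p = 0.0773). The whole-body KO arrays read 11.14, 10.95 and 10.93. Of 27 measured genes described in the literature as induced by FXR, none was called and 20 lay below 0, with a median of -0.19. At an unadjusted p below 0.05 in limma, 8 of the 27 were lower and 1 higher, while 6.41% of all genes were lower. With vehicle arrays only, 2 of the transport genes and 1 of the 27 were called lower, and 0 higher in either list. The Abcb11 promoter is shown because it is the classical IR1 promoter of FXR and held the best match among the bile acid genes described here. RefSeq (GRCm38.p6) places the stretch below at chr2:69342659-69342687 on the minus strand, with the 13 bases of the match in capitals, beginning 63 bases before the start of the gene and carrying 1 mismatch over both repeats.
Abcb11: tggactttAGGCCATTGACCTataagcaa

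That search looked on both strands of each RefSeq promoter window, from 250 bases before to 50 after the gene start, for AGGTCA, any 1 base and TGACCT. At most 2 mismatches over both repeats were allowed. A match occurred in 374 of 32851 windows, or 1.14%. Counted per gene, 125 of the 9888 measured genes with a window held a match (1.26%). Among the 109 called genes, 80 had a window and 0 of them held a match. With so low a share over all measured genes, 0 of 80 does not set the called genes apart. A match here is a description of the letters and says nothing of binding, and an element outside the window would not be seen.

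The list of sulfur amino acid and taurine metabolism, which also holds Sardh, an enzyme of sarcosine, was among the groups with several falls. Of 18 measured genes, 3 were lower (0.492% of all genes were) and 0 higher, and the median was -0.23. Cth, the lyase that makes cysteine from cystathionine, read 12.77, 12.87 and 13.23 in WT and 11.99, 12.02 and 12.06 in the liver KO (-0.93 ± 0.19, adjusted p = 0.023). Sardh, the mitochondrial sarcosine dehydrogenase, read 11.32, 11.39 and 11.46 in WT and 10.42, 11.02 and 10.48 in the liver KO (adjusted p = 0.0213), and Suox, the sulfite oxidase, differed by -0.45 (adjusted p = 0.0281). In each of the 3 genes the groups were separate. Csad, which commits cysteine to the taurine used for bile acid conjugation, read 11.38, 11.59 and 11.52 in WT and 10.21, 10.45 and 10.88 in the liver KO, with an adjusted p of 0.151. Leaving out 1 array left between 0 and 3 calls in this group. Cth and Suox passed with 1 array left out only without WT replicate 1, and Sardh only without WT replicate 1 or liver KO replicate 2 (adjusted p up to 0.124).

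Transcripts of 2 enzymes of histidine breakdown were lower. Hal, the histidine ammonia-lyase of the first step, read 10.53, 10.80 and 11.31 in WT and 9.17, 9.30 and 9.19 in the liver KO (3.15 fold lower, adjusted p = 0.00444). Amdhd1, the imidazolonepropionase further along, read 10.20, 10.42 and 11.06 in WT and 9.43, 9.60 and 9.50 in the liver KO (2.08 fold lower, adjusted p = 0.0495). In both genes WT replicate 3 was the highest array and the liver KO arrays were tightly grouped. These were the 2 lower calls among 11 measured genes of histidine and folate metabolism, with 0 higher, while 0.492% of all genes were called lower. With 1 array left out 1 to 2 were found, since Amdhd1 passed only when WT replicate 1 was the array left out (adjusted p up to 0.182). Ftcd, which takes the last step, read 11.31, 11.46 and 11.61 in WT and 11.05, 11.13 and 11.01 in the liver KO (-0.40, adjusted p = 0.0692). Hal and Amdhd1 lie next to each other among the genes measured and close to Nr1h4 on chromosome 10, as described below.

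Cholesterol synthesis and uptake did not yield a call but stood low as a group in the liver KO arrays. Of 19 measured genes, 18 had a difference below 0 and the median was -0.74. At an unadjusted p below 0.05 in limma, 15 of the 19 were lower, against 6.41% of all genes, and in 15 every liver KO array lay below every WT array. Groups separate in either direction were seen in 20.3% of all genes. Hmgcs1, which makes the HMG-CoA used for sterols, read 12.62, 12.47 and 12.47 in WT and 10.80, 11.51 and 11.77 in the liver KO (-1.16 ± 0.27, adjusted p = 0.0536). Fdft1, the squalene synthase, read 10.84, 10.61 and 10.81 in WT and 9.10, 9.79 and 9.73 in the liver KO (-1.21 ± 0.28, adjusted p = 0.0545). Liver KO replicate 1 was the lowest array in both genes. Over the whole list, its median relative to the WT mean was -1.02, while replicates 2 and 3 stood at -0.53 and -0.35 and the WT arrays between -0.14 and 0.10. Leaving out 1 array moved the median of the list to between -0.84 and -0.52. The number of calls depended on the arrays in the fit, with 8 called when only the vehicle arrays were fitted. Sterol synthesis is known to respond to feeding, as does Igfbp1, whose values are given below. The feeding state was not given for the KO groups, and its part in the result was not tested.

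**Figure D3:**
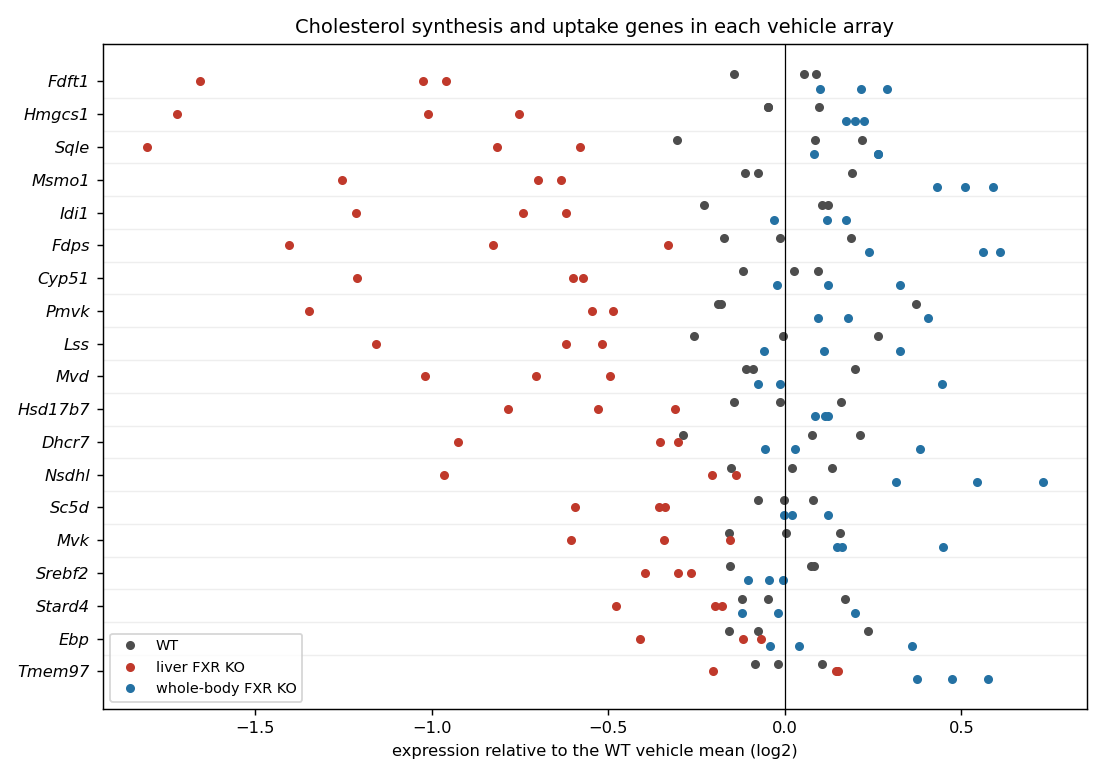
Log2 level of 19 genes of cholesterol synthesis and uptake relative to the mean of the WT vehicle arrays, for the 9 vehicle arrays. Each point is a gene in an array. The medians of the liver FXR KO arrays lie at -1.02, -0.53 and -0.35 and those of the whole-body KO arrays at 0.08, 0.16 and 0.33.

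Other metabolic groups held few calls. Over all genes, 0.387% were called higher and 0.492% lower, the shares to set beside each count here. Among 20 glutathione transferases 2 were higher and 0 lower. Gstt2 read 8.91, 9.31 and 9.14 in WT and 9.95, 10.24 and 10.00 in the liver KO (0.94, adjusted p = 0.012), and Gstm2 read 8.67, 8.88 and 9.02 in WT and 9.45, 9.78 and 9.87 in the liver KO (0.85, adjusted p = 0.026). No other member of the family passed, and the median of the list was -0.03. With 1 array left out 0 to 2 were called: Gstt2 failed without WT replicate 1 or liver KO replicate 2, and Gstm2 without WT replicate 1 or 2 or liver KO replicate 2 or 3 (adjusted p up to 0.122). Fmo5, a flavin-containing monooxygenase, read 11.45, 11.42 and 11.77 in WT and 10.94, 10.79 and 10.79 in the liver KO (-0.71, adjusted p = 0.00995), and failed only without liver KO replicate 2 (adjusted p = 0.0554). Cbr1, a carbonyl reductase that also reduces prostaglandins, was the 1 lower call among NRF2 targets (-0.84, adjusted p = 0.0413). Fatty acid synthesis (30 genes, median -0.11) and the urea cycle with amino acid breakdown (22 genes, median -0.18) had 0 calls. Serpinc1, which encodes antithrombin, was the single call among 39 complement and coagulation genes (-0.29, adjusted p = 0.0357). Alone among 20 iron genes, Bmp6, the signal for hepcidin in iron balance, differed by -0.45 (adjusted p = 0.0273), and Becn1, which starts autophagosome formation, by 0.58 (adjusted p = 0.0141). Of the 4 probe sets of Becn1, 3 shared this direction, and their mean gave 0.17 (adjusted p = 0.277). Serpinc1 failed with any array left out (adjusted p up to 0.162). Cbr1 passed only without WT replicate 1, Bmp6 only without liver KO replicate 3, and Becn1 only without WT replicate 1 or liver KO replicate 3 (adjusted p up to 0.217). Of the 43 lists described, 13 held a call and 30 held none.

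**Figure D4:**
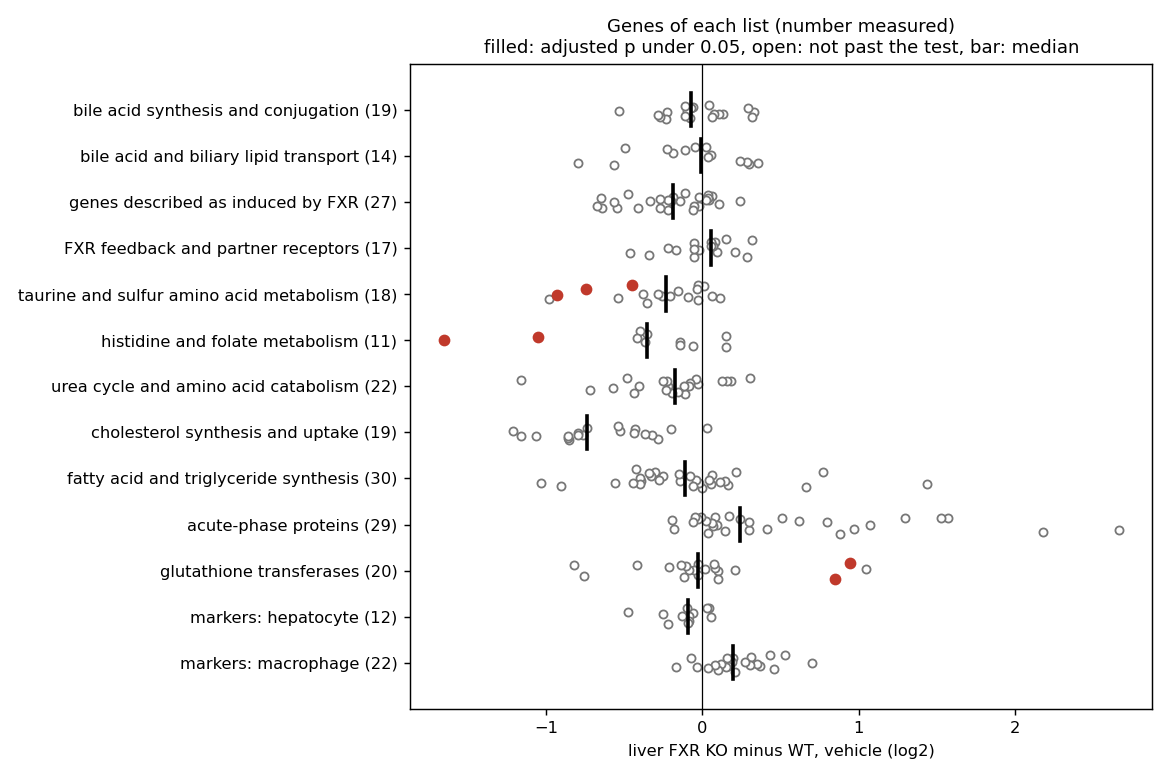
Log2 difference (liver FXR KO minus WT, vehicle) of each measured gene in 13 gene lists, with filled points for genes past the adjusted test and a bar at the median of the list. Cholesterol synthesis has the lowest median, -0.74, with no filled point, and the bile acid lists lie near 0.

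Acute-phase and macrophage genes stood somewhat higher in the liver KO arrays, with no call in either group. Of 29 acute-phase genes, 23 lay above 0 (median 0.24). In 7 the liver KO arrays lay above all WT arrays and in 1 below, while 20.3% of all genes had separate groups when both directions are counted. With only the groups compared, or with vehicle arrays only, 6 acute-phase genes were called higher. Saa1, an acute-phase apolipoprotein, read 11.79, 11.18 and 11.07 in WT and 13.07, 13.08 and 12.48 in the liver KO (1.53 ± 0.50, adjusted p = 0.183). Lcn2, which binds bacterial siderophores, read 6.14, 6.43 and 5.70 in WT and 8.34, 9.52 and 8.42 in the liver KO (2.67 ± 1.05, adjusted p = 0.287). Both were separate between the groups here, but the other arrays of the series spread widely for these genes, and that spread enters the SE. Saa1 and Saa2 are near-identical genes that probes may not tell apart. Of 22 macrophage markers, 19 lay above 0 (median 0.19), with array medians of 0.28, 0.20 and 0.21 in the liver KO and between -0.12 and 0.13 in WT. The part of macrophage RNA in the other results was not tested. The other 8 marker lists, among them those of hepatocytes, cholangiocytes and endothelial cells, had medians from -0.09 to 0.03 and 0 calls. Alb, the defining product of hepatocytes, read 14.90, 14.92 and 14.96 in WT and 14.78, 14.88 and 14.86 in the liver KO, as the liver label requires.

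The whole-body FXR KO arrays show which of these values recur when every tissue lacks the receptor. That comparison gave 141 calls (1.14% of genes), 74 higher and 67 lower, but it uses the same WT arrays, so its values are given side by side only. Rarres2 differed from WT by -1.91 (adjusted p = 0.000379) and Gpld1 by -1.21 (adjusted p = 7.11e-08) in the whole-body KO. Mme differed by -3.11 (adjusted p = 0.00692), Hspb1 by -1.74 (adjusted p = 0.0274) and Hal by -1.75 (adjusted p = 0.00274). Pigr differed by -1.04 (adjusted p = 0.00328), with arrays at 11.45, 11.75 and 11.25. Other genes called in the liver KO did not pass in the whole-body KO. Papss1 differed there by -0.37 (adjusted p = 0.616) and Cth by -0.29 (adjusted p = 0.536). Pkdcc differed by 0.52 (adjusted p = 0.268) and Kif5b by 0.20 (adjusted p = 0.571). None of these passed the direct test between the knockouts either. The list of taurine and sulfur amino acid genes had a whole-body median of 0.08. With 1 array left out the whole-body count of 141 became 56 to 101.

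A direct test between the knockouts, which uses no WT array, called 84 genes (0.678%), 52 higher and 32 lower in the whole-body KO. It shares the liver KO arrays with the comparison of liver KO and WT, so calls in both are not independent. Ank3, on chromosome 10 like Nr1h4, read 6.68, 6.61 and 7.28 in the whole-body KO, near its WT arrays. It was 2.03 higher there than in the liver KO (adjusted p = 0.0008). Fmn2 read 4.84, 4.39 and 4.30 in the whole-body KO, below its WT mean, and differed by -1.59 from the liver KO (adjusted p = 0.000311). The differences of these genes from WT were therefore seen in the liver KO, and the whole-body KO did not show them (Ank3 0.08, adjusted p = 0.923, and Fmn2 -0.41, adjusted p = 0.269). Ces1g lay between, at 8.18, 8.24 and 7.99, which was 1.56 above the liver KO (adjusted p = 0.0326) and below each WT array. Gpld1 was 0.36 higher in the whole-body than in the liver KO (adjusted p = 0.0411), with arrays at 9.77, 9.82 and 9.76. Gstm2 read 10.58, 10.56 and 11.15 in the whole-body KO, a further 1.06 above the liver KO (adjusted p = 0.013).

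Hmgcs1, Fdft1 and Igfbp1 also differed between the knockouts. For the cholesterol synthesis genes, the whole-body KO arrays had medians of 0.08, 0.16 and 0.33 relative to the WT mean. Of these genes, 3 were called higher than in the liver KO: Hmgcs1 by 1.36 (adjusted p = 0.0374), Fdft1 by 1.42 (adjusted p = 0.0378) and Msmo1, a sterol demethylase, by 1.37 (adjusted p = 0.0494). Igfbp1, a carrier of insulin-like growth factors that rises on fasting, read 9.87, 9.43 and 10.49 in the liver KO, 11.84, 10.75 and 11.68 in WT and 12.36, 12.44 and 12.44 in the whole-body KO. The knockouts differed by 2.48 (adjusted p = 0.0219), while the liver KO did not pass against WT (-1.49, adjusted p = 0.13). Asns, the asparagine synthetase, was 2.21 higher in the whole-body than in the liver KO (adjusted p = 0.0494). Efna1, a membrane ligand of Eph receptors, read 6.17, 6.88 and 7.12 in the liver KO and 9.49, 8.72 and 7.99 in the whole-body KO (2.01, adjusted p = 0.0219). Serpinb1a, an inhibitor of neutrophil proteases, read 4.64, 4.32 and 4.98 in the liver KO and 7.48, 5.36 and 7.16 in the whole-body KO (2.02, adjusted p = 0.0411). The whole-body arrays of both spread over more than 1 log2 unit.

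Alas1, the first enzyme of haem synthesis, was lower in the whole-body than in the liver KO, at 10.52, 11.26 and 11.14 against 12.19, 12.68 and 12.37 (-1.44, adjusted p = 0.00673). Tmeff2, a membrane protein with follistatin-like domains, read 6.25, 5.69 and 6.06 in the liver KO and 4.55, 4.76 and 4.67 in the whole-body KO (-1.34, adjusted p = 0.0318). Foxa1, a pioneer transcription factor of liver, differed by -1.32 (adjusted p = 0.0399) and Kyat3, a kynurenine aminotransferase, by -1.13 (adjusted p = 0.04). None of these 4 passed between liver KO and WT. The direct test was sensitive to single arrays: with 1 of the 6 left out, 3 to 23 genes were called, and without liver KO replicate 2 the 3 were Ank3, Fmn2 and Ctse.

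The same genotype comparison could be made in 6 arrays that share none with the vehicle arrays, those of liver KO and WT mice given GW4064. Their spread, however, entered the shared estimate with which the 109 genes were called with vehicle, and both comparisons used that estimate. Genes with little spread among the GW4064 arrays were thus favoured in advance, and the calls of the treatments are not independent. How much of the agreement given here comes from this was not tested. With GW4064, 131 genes were called (1.06%), 42 higher and 89 lower. Of the 109 genes called with vehicle, 103 differed in the same direction with GW4064, against 58.8% of all genes. By direction these were 46 of the 48 higher and 57 of the 61 lower. In 71 of the 109 the groups were separate on the same side in both treatments, as in 4.44% of all genes. Since all 109 were separate with vehicle, the like comparison is with the 2519 genes separate there, of which 550 (21.8%) were separate on the same side with GW4064, against 65.1% of the 109. Both treatments called 29 genes in the same direction, 6 higher and 23 lower, which is 26.6% of the vehicle calls and 22.1% of the GW4064 calls, and 0 genes were called in opposite directions. The GW4064 count was itself unsteady, at 44 to 418 with 1 of its arrays left out.

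**Figure D5:**
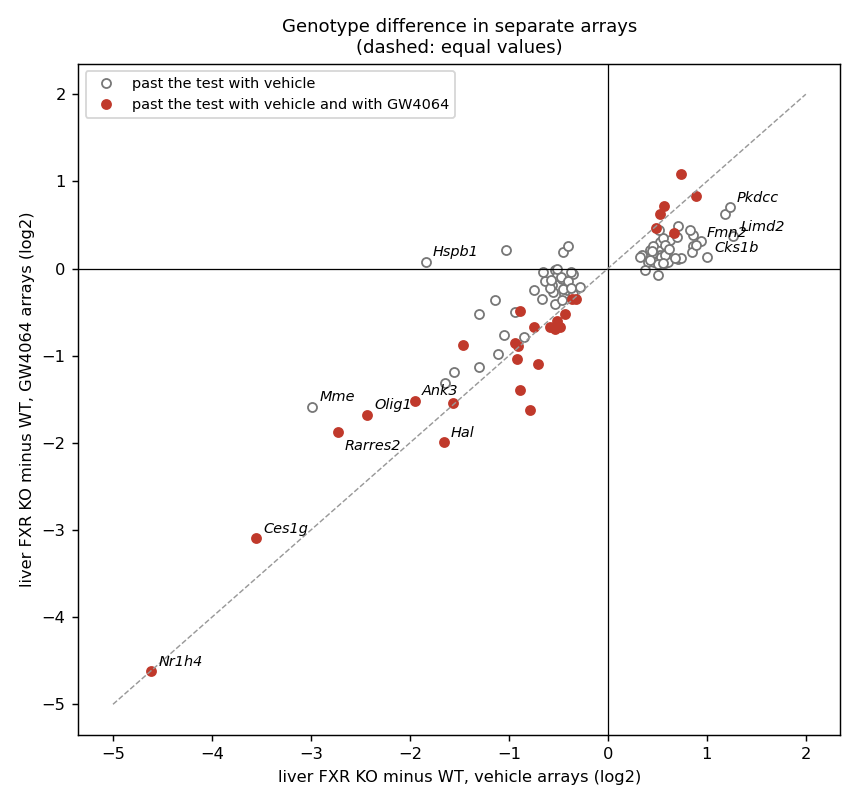
Log2 difference between liver FXR KO and WT with GW4064 (vertical axis) against the same difference with vehicle (horizontal axis) for the 109 genes called with vehicle. Filled points passed the test in both treatments and open points with vehicle only. The dashed line marks equal differences, and 103 points have the same sign on both axes.

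Among the GW4064 arrays too, the liver KO was lower than WT in Gpld1 (-1.54, adjusted p = 1.49e-09), Ces1g (-3.10, adjusted p = 4.01e-05) and Rarres2 (-1.87, adjusted p = 0.00038). Hal (-2.00, adjusted p = 0.00077) and Ank3 (-1.52, adjusted p = 0.00369) were also lower in the liver KO there. Fmo5 differed by -1.10 (adjusted p = 0.000193), and Med12l was 1.08 higher (adjusted p = 5.62e-05). Hspb1 differed by 0.08 there (adjusted p = 0.958) with overlapping groups, and Limd2 by 0.37 (adjusted p = 0.4), also with overlap. Mme differed by -1.58 (adjusted p = 0.161). Whether the genotype difference itself depended on treatment was tested as an interaction. It called 0 genes (0%) in limma, with 925 at an unadjusted p below 0.05, so no difference between the treatments was shown for Hspb1, Limd2 or Mme. Without WT with GW4064 replicate 3, 50 genes passed the interaction test, and without liver KO with GW4064 replicate 2, Igfbp1 alone passed. Abcb11 passed among the GW4064 arrays (-0.62, adjusted p = 0.0478), with every liver KO array below every WT array. Sqle, the squalene epoxidase, was the 1 gene of cholesterol synthesis and uptake called there (-1.61, adjusted p = 0.0201), and 18 of the 19 again lay below 0 with a median of -0.53. Acute-phase genes stood the other way, with 28 of 29 below 0 and a median of -0.83. WT with GW4064 replicates 1 and 2 carried this: relative to the WT vehicle mean, the medians of the list were 1.39, 1.16 and 0.22 in the WT arrays with GW4064, and 0.12, 0.04 and 0.21 in the liver KO arrays.

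By position, calls were more frequent on chromosome 10, which carries Nr1h4, than on any other. There 13 of 560 genes were called (2.32%), and chromosome 12 followed with 7 of 384 (1.82%). The 13 include the deleted gene Nr1h4 itself and the 5 neighbours given next, so an excess over the rest of the chromosome is not shown. Ank3, Arid5b, Gstt2, Ginm1 and Suox, described above, are also among the 13. Within 5 Mb of Nr1h4 in the RefSeq annotation, 43 genes were measured and 5 of them were called. Hal and Amdhd1, given above, were lower, as were Nr2c1 and Nedd1, and Ikbip was higher. Nr2c1, an orphan nuclear receptor, read 7.35, 7.54 and 7.81 in WT and 6.56, 6.74 and 6.75 in the liver KO (-0.88 ± 0.10, adjusted p = 0.000323). The whole-body KO arrays of Nr2c1 lay between, at 7.17, 7.10 and 7.29, 0.50 above the liver KO (adjusted p = 0.0399). Ikbip read 5.08, 4.96 and 5.09 in WT and 5.57, 5.53 and 5.57 in the liver KO (adjusted p = 0.0437), and Nedd1, a centrosomal protein, differed by -0.41 (adjusted p = 0.0379). Nr2c1 and Hal passed with each array left out, Ikbip failed with any array left out and Nedd1 passed only without liver KO replicate 2 (adjusted p up to 0.207). The 5 calls make up 11.6% of the 43 neighbours, against 0.879% of all genes.

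A gene that marks the C57BL/6J strain also differed among arrays. C57BL/6J mice carry a deletion in Nnt, the mitochondrial transhydrogenase. Nnt read 8.34, 8.76 and 8.53 in WT, and 9.84, 10.04 and 8.45 in the liver KO, where replicate 3 alone was at the WT level. The whole-body KO arrays read 9.73 to 9.99, and the liver KO arrays with GW4064 read 10.03, 10.09 and 10.05 (1.48 above WT with GW4064, adjusted p = 0.0107). Wdfy1, an endosomal protein, read 6.13, 5.75 and 5.49 in WT and 6.58, 6.67 and 6.40 in the liver KO, with an adjusted p of 0.11. Nnt and Wdfy1 belong to a list of genes reported to vary between mouse strains. Of its 17 measured members 0 were called, with 7 above and 10 below 0 (median -0.04). Ifi202b, an interferon-inducible gene with close relatives in its cluster, read 3.62, 3.88 and 3.89 in WT and 4.64, 4.79 and 4.45 in the liver KO (0.83, adjusted p = 0.00155). Its whole-body KO arrays stood at 3.83, 3.91 and 3.82, so the knockouts differed by -0.77 (adjusted p = 0.00711). All these Ifi202b values lie near the low level of Nr1h4 in the KO arrays, so the size of both differences is uncertain. The labels give 1 background for all mice, and the part of strain sequence in these results was not tested. Nor was that of sequence flanking Nr1h4 in the results of its neighbours and of other genes on chromosome 10, Ank3 among them.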

How the data were processed

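Liver RNA was measured on 18 arrays in 6 groups of 3, formed by the labelled genotype and treatment. Per the labels, the authors normalized the deposited log2 values with RMA (background correction, quantile normalization and median polish over probe sets), of which no version is given. The array named in the methods (Mouse Gene 1.0 ST) does not match the probe set identifiers, which belong to a 3′ expression array. Quantile normalization gives all arrays like distributions (medians 5.96 to 6.00) and would remove a shift shared by all genes.

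Probe sets were named from the platform annotation: 20393 had 1 symbol, 691 several and 1606 none, and 20364 were matched by gene ID to RefSeq. For 4958 genes with several probe sets the one with the highest mean was used. Among the 109 called genes 50 had several, and in 10 these did not all share a direction. Linear models of the 6 group means were fitted by lmFit and eBayes (limma 3.58.1, R 4.3.3; 12 residual degrees of freedom, two-sided tests), with Benjamini-Hochberg adjustment over 12394 genes and a threshold of 0.05. Errors are model SEs. The number of arrays limits the precision. The fit was tested on simulated data.

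Named genes were the 15 largest rises and the 15 largest falls that passed with separate groups, up to 4 passing members of each of 43 gene lists or up to 2 defining members given as values, up to 5 of each sign for the differences between knockouts and between treatments, and passing genes within 5 Mb of Nr1h4. A few others are given as values for the pathways they belong to. The members, lists and tests were chosen with earlier results of these data known. Alternatives covered the arrays in the fit, spread model, array weights, scaling, dim genes (the lowest 40% left out), probe set rule, replicate block, single arrays left out, the methods' t-test and an unadjusted threshold with 1.5 fold.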

Additional observations from a re-analysis of the deposited data

Results flagged for a closer look

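For 7 genes called between liver FXR KO and WT with vehicle, the direct test between the knockouts also passed in limma. Both comparisons use the same liver KO arrays, so an extreme value there favours a call in both. The whole-body KO was higher than the liver KO in Ank3 by 2.03, Ces1g by 1.56, Gstm2 by 1.06, Nr2c1 by 0.50 and Gpld1 by 0.36. The whole-body minus liver KO difference was -1.59 in Fmn2 and -0.77 in Ifi202b, which reads near the low level of Nr1h4 in the KO arrays. Among these, the changes from WT of Ces1g, Gpld1 and Nr2c1 were smaller in the whole-body KO and that of Gstm2 was larger, while the whole-body arrays of Ank3, Fmn2, Ifi202b and Nr2c1 did not pass against WT. With liver KO replicate 2 left out, Ank3 and Fmn2 remained called between the knockouts and the other 5 did not.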

How the results depend on the processing

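The count of 109 genes between liver FXR KO and WT with vehicle moved with the arrays used and their weights. It was 119 with only the groups compared (66 of the 109 genes shared), 111 with a trended and robust prior, 196 with the vehicle arrays only, 217 with array weights, 218 without the 2 arrays that stood apart (chosen after seeing the data) and 180 at an unadjusted p with 1.5 fold. With 1 array left out it was 37 to 89: 89 without WT replicate 1, 49 without WT replicate 2, 67 without WT replicate 3, and 50, 37 and 61 without liver KO replicates 1, 2 and 3. The methods' t-test gave 140 genes at 1.5 fold and 1 after Benjamini-Hochberg, Cks2 (-0.91, adjusted p = 0.0324). The whole-body KO count of 141 became 255 with vehicle arrays only, 266 without the 2 arrays, 56 to 101 with 1 array left out (83 and 73 without WT replicates 1 and 2, and 67, 85 and 56 without whole-body KO replicates 1, 2 and 3) and 5 by the adjusted t-test. The 84 genes between the knockouts became 184 with only the groups compared, 148 with vehicle arrays only, 53 with a trended and robust prior, 260 with array weights, 134 without the 2 arrays, 186 at an unadjusted p with 1.5 fold, 166 by the t-test with 1.5 fold, 0 by the adjusted t-test and 3 to 23 with 1 array left out (7, 3 and 23 without liver KO replicates 1, 2 and 3, and 20, 17 and 14 without whole-body KO replicates 1, 2 and 3). The 131 genes with GW4064 became 36 with only the groups compared, 77 without the 2 arrays, 285 at an unadjusted p with 1.5 fold, 5 by the adjusted t-test and 44 to 418 with 1 array left out (44 and 418 without WT with GW4064 replicates 1 and 3, and 48 and 67 without liver KO with GW4064 replicates 1 and 2). The interaction, with 0 calls, gave 0 to 50 with 1 array left out (50 without WT with GW4064 replicate 3, and 1 gene, Igfbp1, without liver KO with GW4064 replicate 2) and 224 at an unadjusted p with 1.5 fold.

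Replicate numbers did not pair the arrays: the deviations of same-numbered arrays correlated at 0.12, -0.05 and -0.02. With the replicate number as a block, the counts were 143, 142, 91 and 161 for the 4 comparisons above and 0 for the interaction.

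Of 42 named genes called, none reversed under any alternative, 17 passed with each array left out and 16 in every setting other than the t-test. Among those 17 were Nr1h4, Ces1g, Rarres2, Olig1, Ank3, Hal, Gpld1, Pigr, Limd2 and Fmn2. Abcb11 and Hmgcs1 passed with only the groups compared, with vehicle arrays only, with array weights and without the 2 arrays. The 3 arrays per group limit what can be detected, and genes below background cannot be told from unexpressed ones.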
